A study of Mus musculus with 4 samples.

Results

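Synaptic vesicle and presynaptic release genes encode the machinery by which a nerve terminal fills, docks, fuses and recovers its vesicles. A list of 40 such genes, chosen by symbol for what their proteins do, was examined among the 23337 gene symbols counted in each library. This list and those used below were written with earlier results of these data known. All 40 were present in the counts, and 39 had a level above 1 CPM (reads of a gene per 1000000 reads assigned to genes) in at least 2 libraries and entered the test of 15438 genes. Slc17a7 was left out by that filter, with 1, 21, 15 and 17 reads. No member entered through the libraries of 1 genotype alone.

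The libraries were made from Tomato-positive cells that were isolated by flow sorting out of regenerated olfactory epithelium, each from 1 of 4 mice, to ask how the transcriptome of this lineage differs when lamin B1, a protein of the nuclear lamina, is lost. All mice were of mixed strain background and carried K5Cre, which is driven by the Keratin 5 promoter in horizontal basal cells, the reserve stem cells of the epithelium, together with the Cre-dependent red reporter R26 Ai9 and a floxed Lmnb1 allele (Lmnb1 fl) in which exon 2 is removed. The 2 control libraries came from Lmnb1+/- cells, which have lost 1 copy of the gene and are not wild type, and the 2 mutant libraries came from Lmnb1-/- cells of mosaic epithelium. Every mouse was given methimazole at 50 mg/kg, which destroys the epithelium, and was left to recover for 4 weeks, and the mice formed 2 experimental groups of 1 control and 1 littermate mutant that differed, per the labels, in parents, sex, age and the treatment they received. Libraries are named by genotype and experimental group, and 4 values given in a row are for control 1, control 2, mutant 1 and mutant 2.

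In the olfactory epithelium, sensory neurons send their axons to the olfactory bulb and release glutamate there. Calcium entering the terminal is sensed by synaptotagmins on the vesicle, SNARE proteins of vesicle and plasma membrane then zip together and fuse the membranes, and active zone scaffolds hold primed vesicles beside calcium channels. Clathrin and dynamin retrieve the membrane afterwards, and the same set of proteins is present at most synapses of the nervous system.

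Reads assigned to genes numbered 14833396 to 23704638 per library, so that 3 counts corresponded to 0.127 to 0.202 CPM. Of uniquely aligned reads, 39.4% fell outside annotated genes in mutant 1 and 22.1 to 24.9% did so in the other libraries, and 1603 genes were at 0 in mutant 1 compared with 5173 to 6053 elsewhere. No pair of libraries agreed within sampling noise, with a chi-square per degree of freedom of 47.0 to 277.7. Lmnb1 itself was at 20.6 and 18.8 CPM in the controls and 14.1 and 10.1 CPM in the mutants, lower in both mutants but not past the threshold in edgeR (log2 fold change -0.72, SE 0.31, adjusted p = 0.195). Its count pools all exons and does not resolve the removed one.

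In mutant cells, 19 of the 39 presynaptic genes tested were expressed at a lower level and 0 at a higher level, at an adjusted p under 0.05 by edgeR's likelihood-ratio test with genotype and experimental group in the model. Across all genes tested, 4.3% were lower and 1.28% were higher. At an unadjusted p under 0.05 the members numbered 25 lower and 0 higher, and the quasi-likelihood test and DESeq2 also called 0 higher. The genes that fell included Syngr1 and Sv2a of the vesicle membrane, the calcium sensor genes Syt1 and Syt7, the glutamate transporter gene Slc17a6 and the dynamin gene Dnm1, each at 41.95 to 48.1% of its control level. The fold change was negative for 33 of 39 members (51.1% of all genes) and its median was -0.63 on the log2 scale, compared with -0.01 over all genes. Both mutants lay below both controls for 19 of 39 members (13.3% of all genes). Of these, 14 were called lower and 5 were not. Both mutants lay above both controls for 1, Ppfia3 (12.6% of all genes). Summed over the 40 members, expression was 3473, 2708, 2280 and 1583 CPM, so that the sum was lower in mutant cells in both experimental groups.

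In RNA from sorted populations, fewer cells of a type and less RNA per cell cannot be told apart. Markers of mature olfactory sensory neurons moved with the presynaptic genes. In edgeR, all 16 on a list of such markers were lower in mutant cells, with a median log2 fold change of -1.36. Their summed levels were 28570, 12140, 15190 and 3565 CPM. With DESeq2, Omp, Gnal, Cnga4, Ano2 and Stoml3 did not pass (adjusted p = 0.0674 to 0.2045). Both mutants lay below both controls for 4 of the 16 (13.3% of all genes). The log2 fold change of every tested member lay above the median of these markers, the lowest being -1.25 for Syngr1. The part of neuron content in the presynaptic result was not tested.

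The calls rested on comparing each mutant with the control of its own experimental group. Without the term for experimental group, 0 of 39 members passed edgeR's likelihood-ratio test after adjustment, and 4 had an unadjusted p under 0.05. With any 1 library left out, when genotype alone was fitted with 1 residual degree of freedom, 0 of 38 members passed, and 0, 7, 16 and 0 had an unadjusted p under 0.05 without control 1, control 2, mutant 1 and mutant 2. With edgeR's quasi-likelihood test 17 of the 19 passed, without Bsn and Unc13a (3.2% of all genes were lower), and with DESeq2 18 of the 19 passed, without Unc13a (5.63% of the genes given an adjusted p were lower).

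**Figure D1:**
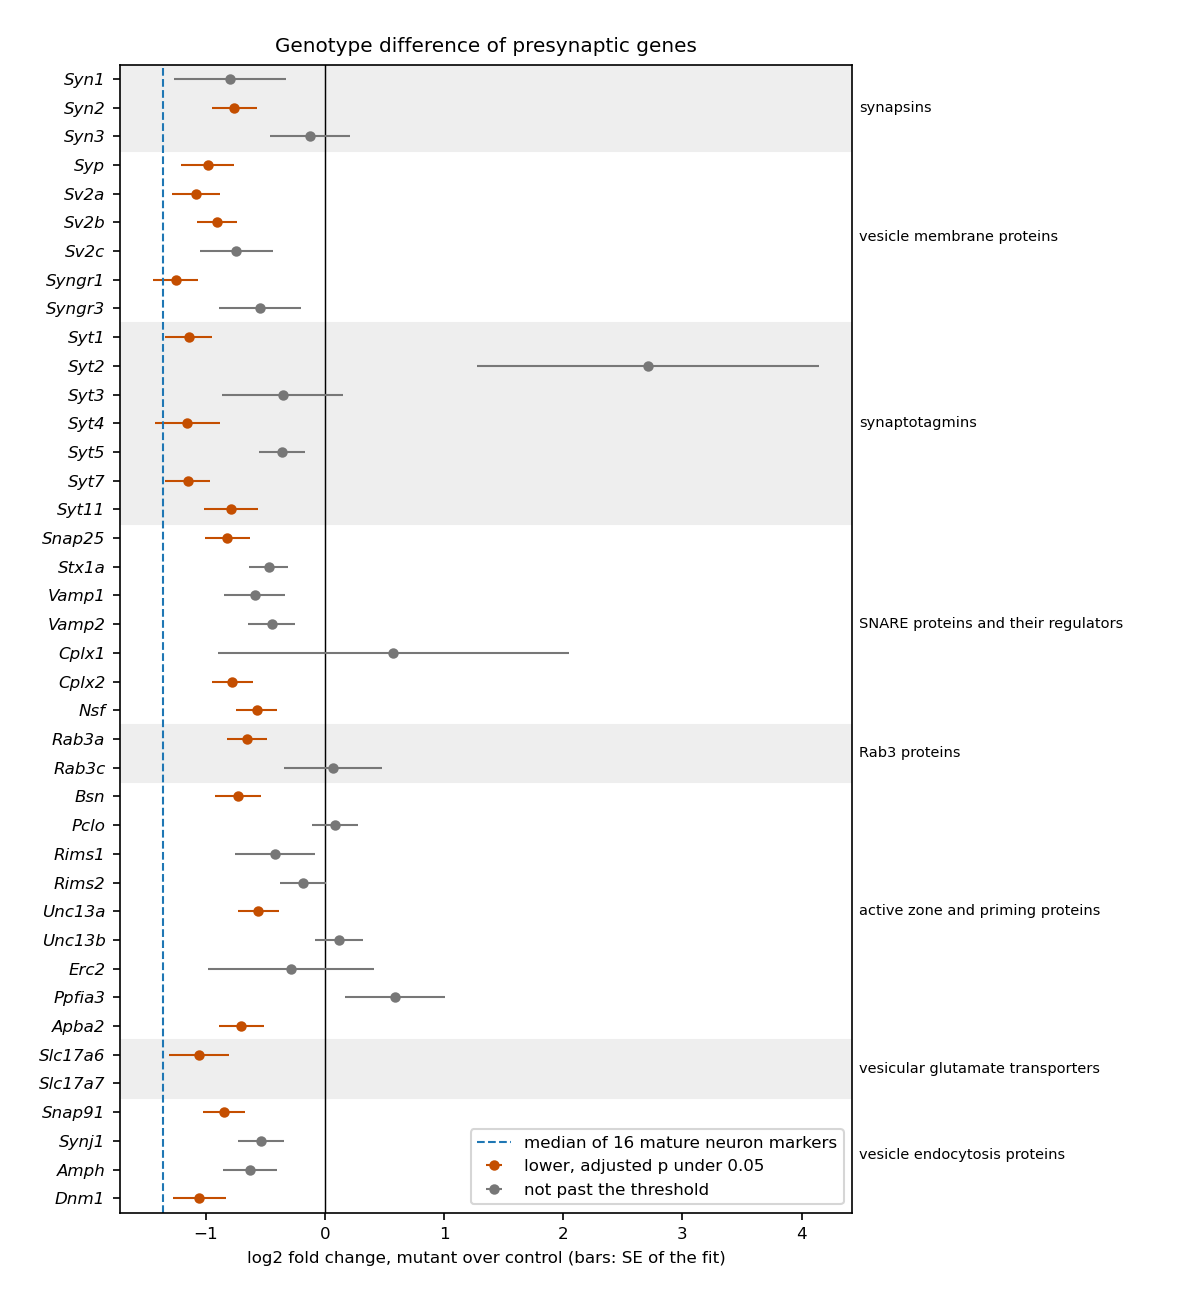
Log2 fold change of each member, mutant over control, from the edgeR fit on 2 control and 2 mutant libraries (points, with bars of 1 SE), grouped by role. The 19 members past the threshold lie between -1.25 and -0.56, to the right of the dashed line at the median of 16 mature neuron markers (-1.36), and Slc17a7 has no point because it was not tested.

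The sequence before the transcription start was examined for the members, of which 19 were lower. RefSeq (GRCm38.p6) gave start sites for 32 of the 40 genes, in 42 windows of 250 bases. The windows are shown for 4 genes that were lower with the smallest p among those with at most 10 annotated exon bases in the window, and their motif letters are in capitals on either strand. Syngr1 (chr15:80091084-80091333, plus strand) held a GC box (GGGCGG), and Syt1 (chr10:109010976-109011225, minus strand, with 7 bases of annotated exon) held a GC box and a pair of CCAAT boxes. Sv2b (chr7:75309263-75309512, minus strand) held a TATA box (TATAAA, read here from the opposite strand), and Snap91 (chr9:86880709-86880958, minus strand) held a pair of GC boxes.
Syngr1: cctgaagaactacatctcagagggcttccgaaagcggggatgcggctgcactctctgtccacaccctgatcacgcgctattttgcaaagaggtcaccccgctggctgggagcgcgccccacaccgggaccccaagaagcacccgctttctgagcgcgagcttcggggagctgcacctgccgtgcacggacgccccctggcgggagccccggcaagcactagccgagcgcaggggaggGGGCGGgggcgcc
Syt1: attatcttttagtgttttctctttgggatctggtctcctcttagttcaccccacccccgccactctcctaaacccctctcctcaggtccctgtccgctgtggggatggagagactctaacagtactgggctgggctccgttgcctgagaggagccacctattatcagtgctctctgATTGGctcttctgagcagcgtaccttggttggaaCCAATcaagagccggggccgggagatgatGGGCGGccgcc
Sv2b: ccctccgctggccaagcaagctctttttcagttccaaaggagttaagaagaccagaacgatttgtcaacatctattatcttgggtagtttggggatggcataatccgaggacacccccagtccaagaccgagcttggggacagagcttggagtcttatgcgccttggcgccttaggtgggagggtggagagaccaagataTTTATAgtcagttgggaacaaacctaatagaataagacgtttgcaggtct
Snap91: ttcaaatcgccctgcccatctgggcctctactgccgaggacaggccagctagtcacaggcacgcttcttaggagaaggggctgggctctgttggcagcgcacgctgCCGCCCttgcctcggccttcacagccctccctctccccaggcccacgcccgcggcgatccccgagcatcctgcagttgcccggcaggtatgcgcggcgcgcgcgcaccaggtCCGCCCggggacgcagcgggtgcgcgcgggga

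For comparison, the windows are shown of the 2 most abundant members that did not pass the threshold. Unc13b (chr4:43058703-43058952, plus strand) held 4 GC boxes and 2 CCAAT boxes, and Pclo (chr5:14514668-14514917, plus strand) held 2 GC boxes.
Unc13b: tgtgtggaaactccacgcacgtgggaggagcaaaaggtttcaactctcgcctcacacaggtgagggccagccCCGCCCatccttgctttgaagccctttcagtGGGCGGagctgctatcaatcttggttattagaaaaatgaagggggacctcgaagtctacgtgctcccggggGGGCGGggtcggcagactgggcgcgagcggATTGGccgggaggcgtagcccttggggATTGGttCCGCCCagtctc
Pclo: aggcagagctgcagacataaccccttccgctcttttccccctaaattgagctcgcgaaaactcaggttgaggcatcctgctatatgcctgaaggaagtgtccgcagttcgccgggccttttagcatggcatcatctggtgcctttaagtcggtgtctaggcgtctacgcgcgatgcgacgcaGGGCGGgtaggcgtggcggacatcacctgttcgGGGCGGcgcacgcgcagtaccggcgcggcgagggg

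A GC box was present in 24 of 42 member windows and in 32.742% of all 32851 windows of this length, and in 11 of the 24 windows of members that were lower. A CCAAT box was present in 9 of 42 windows (33.85% of all windows), and a TATA box in 2, both of Sv2b (12.368%). TGACGT, the core of a cAMP response element, was found for Rab3a and Syn1 alone (6.469%). The core of the RE1 element was in 0 of 42 windows and in 0.033% of all windows, and the palindromic motif of early B-cell factors in 0 of 42 and in 0.779%. All motifs were searched on both strands, and none of the 6 contains another. The median GC content was 61.2% in member windows and 52.4% in all windows.

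Loading of vesicles with glutamate was represented by Slc17a6, which encodes VGLUT2, the transporter of sensory neurons. Slc17a6 was at 129, 138, 93.3 and 43.6 CPM. Both mutants were below both controls, and mutant 2 was far below mutant 1. The log2 fold change was -1.06 (SE 0.25, edgeR adjusted p = 0.00231), and the ratio within experimental group 1 was -0.46 against -1.66 within experimental group 2. Slc17a7, which encodes VGLUT1, was at 0.043, 1.00, 0.65 and 1.15 CPM and was not tested. Per kb of exon, Slc17a6 supplied 97.2 to 99.97% of the CPM of the 3 vesicular glutamate transporter genes in every library.

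Vesicle membrane proteins gave the lowest median among the role groups with more than 1 tested gene, with 4 of 6 lower, 0 higher and a median log2 fold change of -0.95. Syngr1, which encodes the tetraspan protein synaptogyrin 1 and lies on chromosome 15 at 80091334 to 80119501 (GRCm38, plus strand), was at 265, 111, 102 and 50.8 CPM. Both mutants were below both controls, although mutant 1 was close to control 2. Its log2 fold change was -1.25 (SE 0.19, edgeR adjusted p = 4.04e-08), and it was at 41.95% of its control level.

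Syp, which encodes synaptophysin, an abundant vesicle protein, was at 377, 159, 224 and 67.9 CPM. Mutant 1 was above control 2, so the genotypes overlapped, but each mutant was below its own control (log2 fold change -0.99, SE 0.22, edgeR adjusted p = 0.000697). The SV2 genes encode vesicle glycoproteins with the fold of a transporter. Sv2a was at 69.7, 33.0, 37.4 and 13.5 CPM, with a similar overlap of mutant 1 and control 2, and its log2 fold change was -1.08 (SE 0.20, edgeR adjusted p = 2.16e-05). Sv2b was at 106, 53.2, 52.7 and 30.6 CPM. Mutant 1 and control 2 were nearly level for Sv2b, whose log2 fold change was -0.90 (SE 0.17, edgeR adjusted p = 2.57e-05).

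Sv2c was at 25.2, 33.7, 22.8 and 13.1 CPM, and its log2 fold change of -0.74 (SE 0.31) was not past the threshold in edgeR (adjusted p = 0.175). The ratio of mutant 1 to control 1 was -0.14 and that of mutant 2 to control 2 was -1.36, so mutant 2 alone stood well below its control. Syngr3, at 17.4, 13.3, 14.05 and 7.66 CPM, did not pass either (edgeR adjusted p = 0.482).

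Synapsins are phosphoproteins that tether vesicles into a reserve pool, and 1 of the 3 genes was lower. Syn2 was at 69.97, 35.3, 40.4 and 21.35 CPM. Mutant 1 lay between the controls, and the decrease was nearly equal in both experimental groups, at -0.79 and -0.72 (log2 fold change -0.76, SE 0.19, edgeR adjusted p = 0.00239). Syn1 had as large a fold change, -0.80, but a low level, at 9.68, 8.002, 5.55 and 4.61 CPM, and a larger error (SE 0.47, edgeR adjusted p = 0.430). Syn3 was at 9.98, 18.5, 9.37 and 16.5 CPM, higher in both libraries of experimental group 2 and close between genotypes. A share of 14.1% of the Syn3 exon length is also exon of Timp3 on the opposite strand, and whether reads were counted by strand is not given in the sources used here. The same limit holds for Syp (16.8%, with Gm14703), Syt4 (14.5%, with Gm26658) and Syt7 (5.13%, with Gm26859), whose opposite-strand partners the counts do not list.

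**Figure D2:**
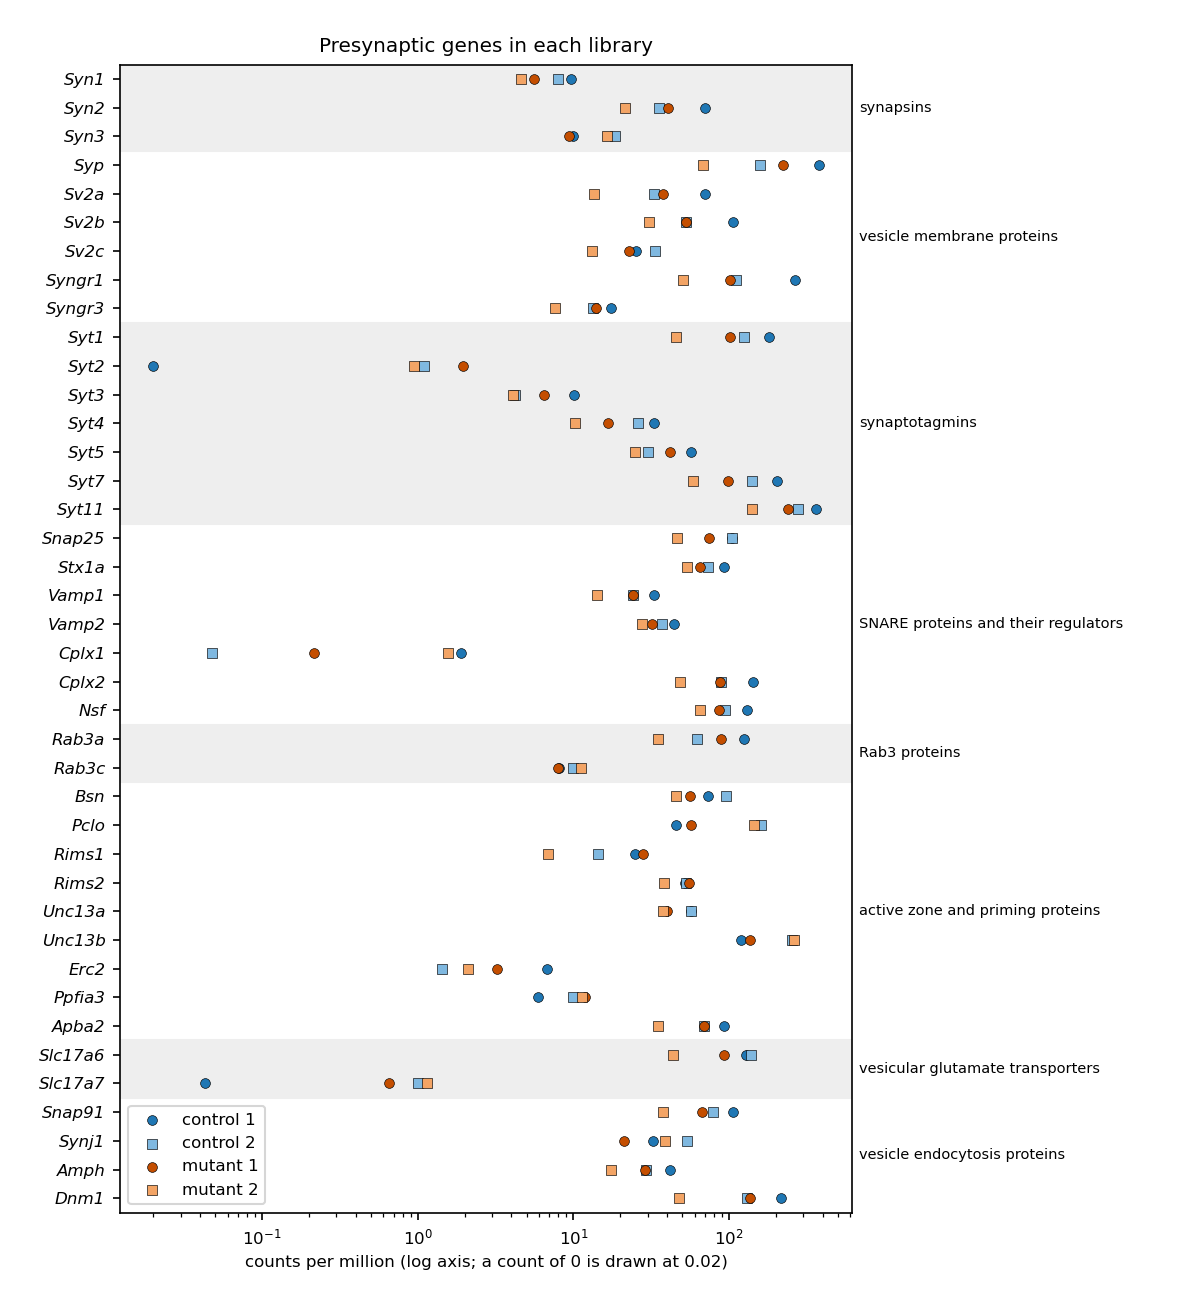
CPM of the 40 members in each library on a log axis (circles, experimental group 1; squares, experimental group 2; blue, control; orange, mutant), grouped by role, with a count of 0 drawn at 0.02. Mutant 2 is the lowest library for all 19 members past the threshold, while Pclo and Unc13b separate by experimental group and not by genotype.

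Synaptotagmins are the calcium sensors of exocytosis and related vesicle proteins, and 4 of the 7 genes were lower. Syt1 encodes the sensor for fast synchronous release. It was at 179.6, 125, 101.0 and 45.3 CPM, with both mutants below both controls, and its log2 fold change was -1.14 (SE 0.20, edgeR adjusted p = 5.88e-06). Syt7 encodes a high-affinity sensor for slower release and was at 204, 139.5, 98.1 and 58.4 CPM. Again the genotypes did not overlap, and the ratio was similar in the experimental groups, at -1.05 and -1.25 (log2 fold change -1.15, SE 0.19, edgeR adjusted p = 4.52e-07).

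Syt4 and Syt11 encode members whose first C2 domain does not bind calcium. Syt4 was at 32.9, 26.05, 16.8 and 10.2 CPM, without overlap (log2 fold change -1.16, SE 0.27, edgeR adjusted p = 0.00157). Syt11 was the most abundant synaptotagmin gene, at 360, 279, 238 and 141 CPM. Its mutants were also below both controls, but the decrease was smaller (log2 fold change -0.79, SE 0.23, edgeR adjusted p = 0.0145). Per kb of exon, Syt11 made up 45.0, 49.5, 48.0 and 49.4% of the CPM of the 7 genes, so its share was close to level while Syt7 went from 17.7 and 17.2% in the controls to 13.8 and 14.2% in the mutants. Shares were not tested.

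The other synaptotagmin genes did not pass. Syt5, which encodes a protein of dense-core vesicles, was at 57.05, 30.2, 42.0 and 24.9 CPM and followed experimental group more than genotype (log2 fold change -0.36, SE 0.19, edgeR adjusted p = 0.341). Syt3 was at 4.07 to 10.2 CPM. Syt2, which replaces Syt1 in some hindbrain and spinal neurons, had 0, 23, 45 and 14 reads. Its fitted fold change rests on the 0 in control 1 and is not a measure of size (SE 1.43, edgeR adjusted p = 0.583).

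SNARE proteins and their regulators included 3 lower genes of 7. Snap25 encodes the plasma membrane SNARE of neurons and was at 103.7, 103.8, 73.85 and 46.5 CPM. The controls were level and both mutants lay below them (log2 fold change -0.82, SE 0.19, edgeR adjusted p = 0.00114). Stx1a, its partner syntaxin, was at 92.7, 72.8, 65.2 and 53.7 CPM. Here too the genotypes did not overlap, but the difference was smaller and did not pass (log2 fold change -0.47, SE 0.16, edgeR adjusted p = 0.0607). The genes of the vesicle SNAREs, Vamp1 and Vamp2, had log2 fold changes of -0.59 and -0.45 and edgeR adjusted p of 0.188 and 0.208, and Vamp2 was at 44.1, 37.25, 31.9 and 27.7 CPM.

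Complexins clamp and then promote fusion of assembled SNAREs. Cplx2 was at 142, 88.6, 87.7 and 48.7 CPM, with mutant 1 just below control 2, and its log2 fold change was -0.78 (SE 0.17, edgeR adjusted p = 0.000708). Cplx1 had 44, 1, 5 and 23 reads, and its ratios had opposite signs, -2.67 and 3.51, in the experimental groups. Cplx2 supplied 93.3 to 99.9% of the CPM per kb of both genes. Nsf, the ATPase that takes spent SNARE complexes apart, was at 131, 94.4, 85.7 and 65.3 CPM, below both controls in both mutants (log2 fold change -0.57, SE 0.17, edgeR adjusted p = 0.0238).

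Rab3 proteins are GTPases that mark vesicles for docking. Rab3a was at 124, 62.0, 88.3 and 34.8 CPM. Mutant 1 was above control 2, and each mutant was below its own control (log2 fold change -0.65, SE 0.17, edgeR adjusted p = 0.00458). With genotype alone in the model, its log2 fold change was 0.005 without control 1 and -0.04 without mutant 2. Rab3c, at 7.94 to 11.1 CPM, was close between genotypes (log2 fold change 0.07, SE 0.41, edgeR adjusted p = 0.979).

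Active zone and priming proteins were the group with the smallest median change among those of 3 or more genes, -0.29, and 3 of the 9 were lower. Bsn encodes bassoon, a giant scaffold, and was at 73.6, 95.5, 56.1 and 45.3 CPM. Both mutants were below both controls (log2 fold change -0.73, SE 0.19, edgeR adjusted p = 0.00644, and 0.0501 by the quasi-likelihood test). Pclo encodes piccolo, the other giant scaffold, and was at 45.5, 161, 57.0 and 144 CPM. Both libraries of experimental group 2 were high and the genotypes were close (log2 fold change 0.08, SE 0.19, edgeR adjusted p = 0.923).

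Unc13 proteins prime docked vesicles for fusion. Unc13a was at 57.35, 56.6, 39.8 and 37.55 CPM, and libraries of the same genotype were nearly level (log2 fold change -0.56, SE 0.17, edgeR adjusted p = 0.0253). It had the largest adjusted p of the 19 lower members and did not pass with the quasi-likelihood test (adjusted p = 0.0695) or DESeq2 (adjusted p = 0.158). Unc13b was at 119, 254, 135 and 262 CPM, set apart by experimental group and close between genotypes (log2 fold change 0.12, SE 0.20, edgeR adjusted p = 0.881). Unc13a shares 495 bases (3.92% of its exon length) with Colgalt1 on the opposite strand, which the counts list under its older symbol Glt25d1.

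Apba2 encodes Mint2, an adaptor protein of the terminal, and was at 92.5, 69.4, 68.6 and 35.1 CPM. Mutant 1 and control 2 were close, and the log2 fold change was -0.70 (SE 0.19, edgeR adjusted p = 0.00619). RIM proteins link Rab3, Unc13 and calcium channels. Rims1 was at 24.7, 14.5, 27.8 and 6.91 CPM and Rims2 at 52.4, 52.5, 55.55 and 38.1 CPM, and for both genes mutant 1 was the highest library and mutant 2 the lowest. Neither passed (edgeR adjusted p = 0.642 and 0.742). Erc2, at 1.43 to 6.74 CPM, and the liprin gene Ppfia3, at 5.96, 9.91, 11.8 and 11.3 CPM, did not pass either (edgeR adjusted p = 0.931 and 0.567).

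Endocytic proteins recover vesicle membrane, and 2 of the 4 genes were lower. Dnm1 encodes dynamin 1, the GTPase that cuts vesicles from the membrane, and was at 214, 131, 136 and 47.4 CPM. Mutant 1 was level with control 2 and mutant 2 was the lowest (log2 fold change -1.05, SE 0.22, edgeR adjusted p = 0.000283). Snap91 encodes the clathrin assembly protein AP180 and was at 105, 78.3, 67.4 and 37.5 CPM. Its genotypes did not overlap (log2 fold change -0.85, SE 0.17, edgeR adjusted p = 0.000145). Amph, which encodes the curvature-binding protein amphiphysin, and Synj1, which encodes the lipid phosphatase that helps uncoat vesicles, were lower in each mutant than in its own control but did not pass (log2 fold changes -0.63 and -0.54, edgeR adjusted p = 0.0808 and 0.0893).

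**Figure D3:**
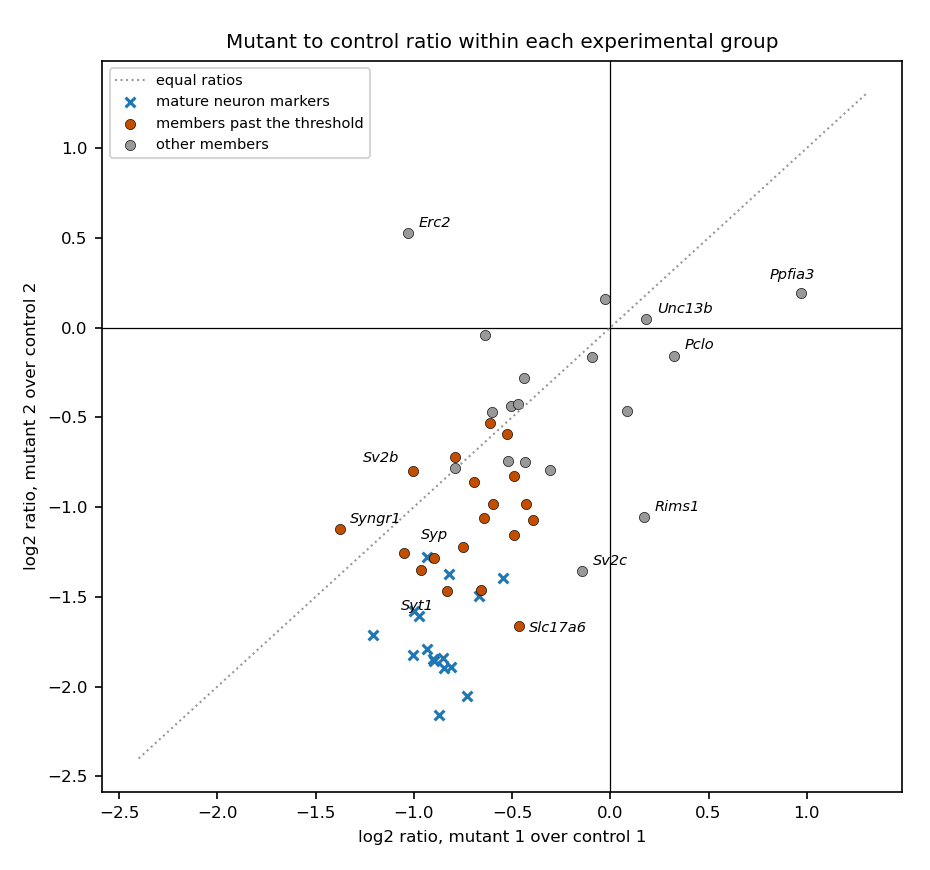
Log2 ratio of mutant to control CPM (prior count 2) in experimental group 1 (x axis) and experimental group 2 (y axis), for 37 members (circles) and 16 mature neuron markers (crosses). Syt2 and Cplx1, with ratios of 4.39 and -0.19 and of -2.67 and 3.51, and the untested Slc17a7 are not drawn, and most points lie below the dotted line of equal ratios.

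The size of the difference varied between the experimental groups. The median log2 ratio of the members was -0.52 between mutant 1 and control 1 and -0.78 between mutant 2 and control 2, and that of the 16 mature neuron markers was -0.88 and -1.81. Slc17a6, Syt1, Dnm1 and Sv2c had the lowest ratios in experimental group 2, at -1.66, -1.47, -1.46 and -1.36, and in experimental group 1 Syngr1, at -1.38, had the lowest apart from Cplx1, which had few reads. Each ratio rests on 1 mutant and 1 control, and the difference between experimental groups was not tested.

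Members also differed between the experimental groups irrespective of genotype. In the same edgeR model, 17 of 39 were lower in experimental group 2 than in group 1 (14.0% of all genes) and 4 were higher (17.7% of all genes). Rab3a had a log2 difference of -1.17 (edgeR adjusted p = 4.72e-10) and Syp of -1.48 (edgeR adjusted p = 2.14e-09). The 4 higher members were Pclo (1.58, edgeR adjusted p = 1.16e-13), Unc13b (1.02, edgeR adjusted p = 8.74e-06), Synj1 (0.80, edgeR adjusted p = 0.000406) and Syn3 (0.86, edgeR adjusted p = 0.0371). With offsets for gene length and GC content, Pclo was the 1 of these 4 that passed (log2 difference 1.00, edgeR adjusted p = 1.57e-06). Per the labels, parents, sex, age and treatment differed between the experimental groups. The study states that sample preparation and sequencing were the same within a group, and does not state this between groups. In its own plot of distances between libraries, it assigns dimension 1 to the groups and lists litter, batch and treatment. Lines that name no gene held 76.1 and 77.7% of all counts listed in control 1 and mutant 1. In control 2 and mutant 2 they held 45.4 and 43.1%. These factors cannot be told apart.

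Compared per kb of exon, so that genes of different length can be set side by side, Syp was the highest member in control 1 and Syt11 in the other libraries. The 4 highest members in control 1 were Syp at 72.3, Syt11 at 69.1, Rab3a at 55.6 and Syngr1 at 55.1 CPM per kb. In mutant 2 they were Syt11 at 27.1, Stx1a at 20.2, Rab3a at 15.65 and Syp at 13.0 CPM per kb. Syngr1 was at 55.1, 23.1, 21.2 and 10.6 CPM per kb, and Stx1a at 34.8, 27.3, 24.45 and 20.2. The 19 members that were lower had a median of 82.0 CPM, against 21.1 CPM for the 20 tested members that did not pass, and a median exon length of 5.40 kb against 7.77 kb. Both lengths are above the median of all tested genes, 4.32 kb.

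Some members have relatives that are used in cells of every kind, and the share of the neuronal gene in its family differed between libraries. Dnm2, the dynamin of all cells, was at 17.65, 17.0, 18.3 and 18.03 CPM per kb, while Dnm1 was at 40.8, 24.9, 25.9 and 9.03. Dnm1 thus made up 69.7, 59.3, 58.5 and 33.3% of the CPM per kb of the dynamin genes. Snap25 made up 86.0, 74.8, 79.3 and 49.2% of the sum with Snap23, the SNARE of secretion outside neurons. For synaptogyrins, the share of Syngr1 was 62.25, 43.65, 40.2 and 22.8%, with the remainder mainly Syngr2. Mutant 2 had the lowest share of the neuronal gene in these 3 families, and mutant 1 was close to control 2 in each. Dnm2, Snap23 and Syngr2 had log2 fold changes of 0.07, 0.32 and 0.22 and did not pass (edgeR adjusted p = 0.931, 0.675 and 0.661), and the difference between relatives was not tested.

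**Figure D4:**
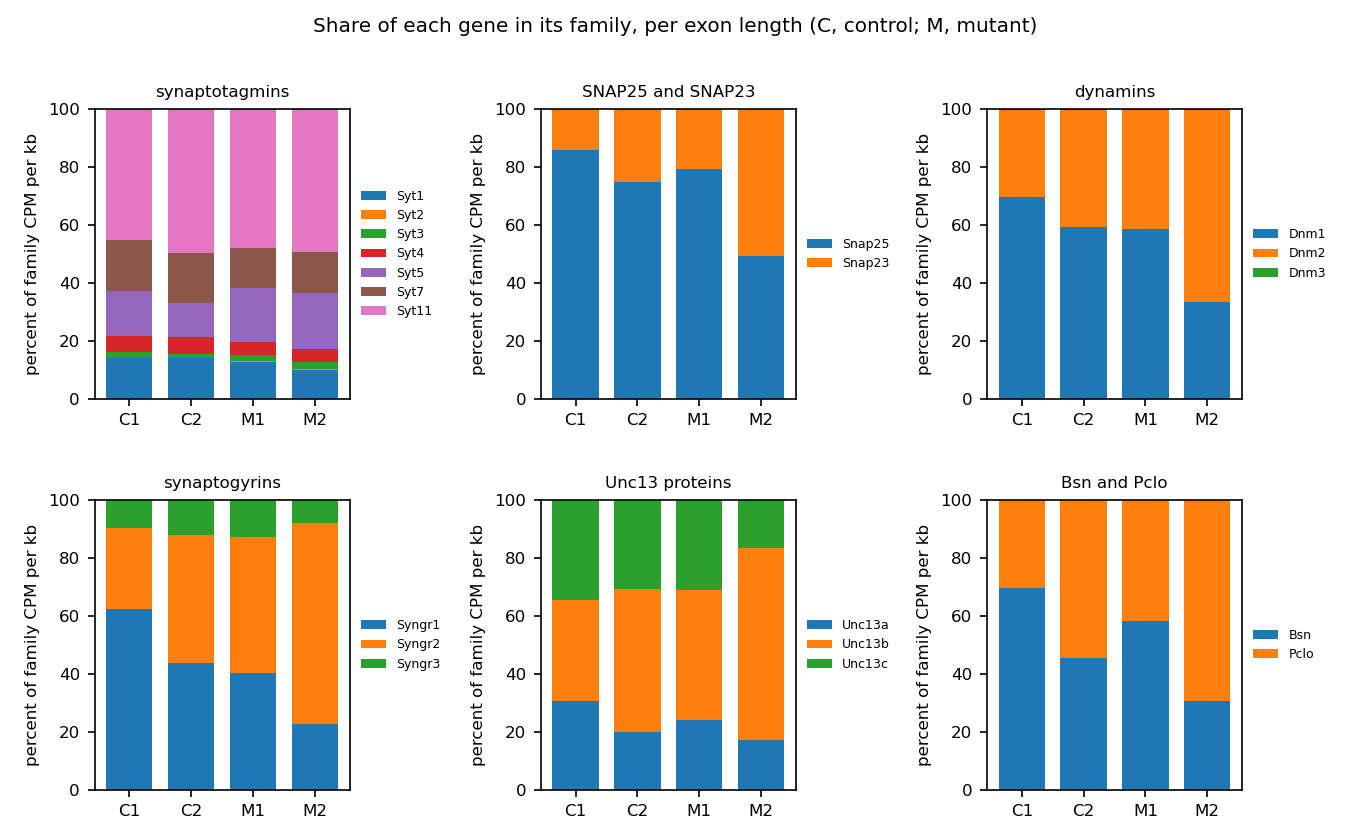
Share of each gene in the summed CPM per kb of exon of its family, in percent, for 6 families in control 1 (C1), control 2 (C2), mutant 1 (M1) and mutant 2 (M2). The neuronal genes Snap25, Dnm1 and Syngr1 have their lowest shares in mutant 2, while the shares of the synaptotagmin genes differ less between libraries.

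Other genes of the presynaptic terminal were examined from a separate list of 59, of which 49 were tested. Of these, 13 were lower and 1 was higher in mutant cells, and the median log2 fold change was -0.37. Apba1, which encodes Mint1, was at 122, 95.7, 59.8 and 31.85 CPM, with both mutants far below both controls (log2 fold change -1.30, SE 0.18, edgeR adjusted p = 1.58e-09). Snph, which encodes the mitochondrial anchor syntaphilin, was lower as well (log2 fold change -1.20, SE 0.24, edgeR adjusted p = 0.000155). Stxbp5l, a tomosyn gene, fell by 1.06.

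Lower genes on that list also included Rims3, Napb, Rab3b, Unc13c, Nrxn2, Scamp5, Cadps and Cacna1b, with log2 fold changes of -0.98 to -0.67. The priming gene Cadps and the calcium channel gene Cacna1b were near the upper end, at -0.70 and -0.67. Stxbp6, which encodes the SNARE-binding protein amisyn, was at 21.2, 73.1, 48.05 and 98.6 CPM and was higher in each mutant than in its own control (log2 fold change 0.80, SE 0.20, edgeR adjusted p = 0.00368). Control 2 was above mutant 1 for this gene, so the genotypes overlapped.

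General trafficking genes, the SNARE, Rab and dynamin relatives used in every cell, were taken as a list of 38. Of the 37 tested, 1 was lower and 0 were higher in edgeR (4 and 2 at an unadjusted p under 0.05, and 0 higher with DESeq2), and the median log2 fold change was 0.04. The lower gene was Stx2, a plasma membrane syntaxin, at 139, 119, 100.3 and 52.3 CPM (log2 fold change -0.82, SE 0.21, edgeR adjusted p = 0.00368). The summed level of this list was 2811, 3186, 2629 and 3129 CPM, with less difference between genotypes than between experimental groups.

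**Figure D5:**
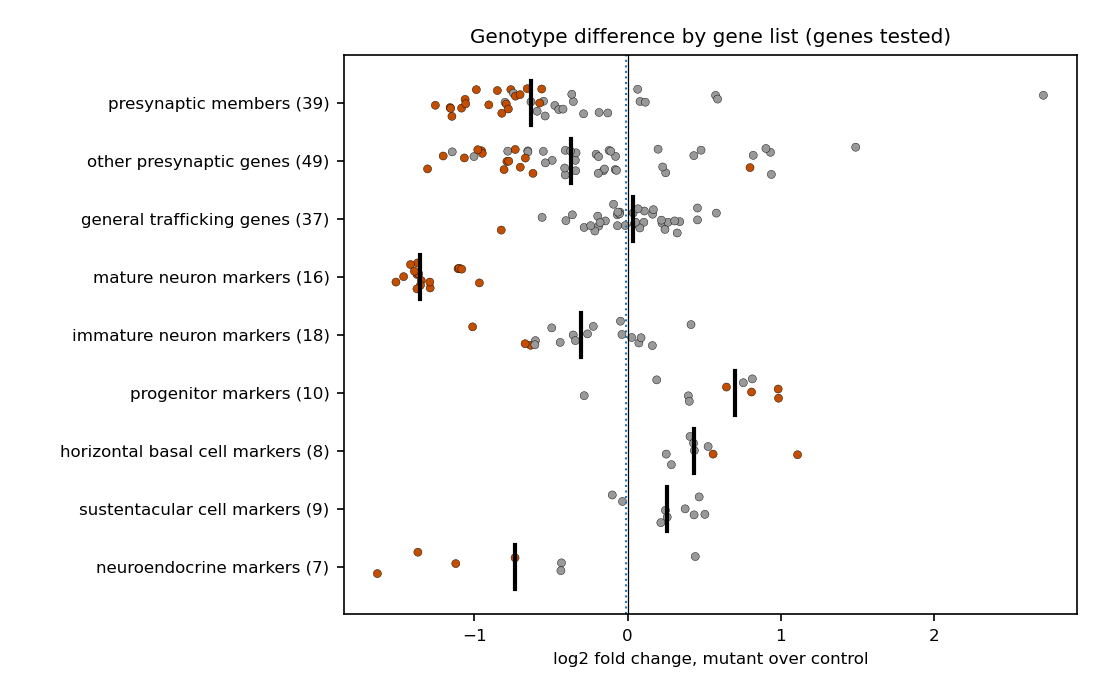
Log2 fold change, mutant over control, of each tested gene on 9 lists (points; orange, adjusted p under 0.05 in edgeR; grey, not past it), with the list median as a black bar and the median of all genes as a dotted line. The median of the 39 presynaptic members (-0.63) lies between those of the mature neuron markers (-1.36) and the general trafficking genes (0.04).

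Markers of the other cells that the sort could hold moved in either direction, depending on the list. Of 18 immature neuron markers, 3 were lower (Dcx, Stmn4 and Ddit3), with a median log2 fold change of -0.30 and sums of 4376, 3508, 3577 and 3050 CPM. Of 10 progenitor markers, 4 were higher (Kit, Hes6, Mki67 and Top2a, median 0.70), and of 8 horizontal basal cell markers, 2 were higher (Krt15 and Egfr, median 0.43). The fold change was negative for 1 of the 10 and 0 of the 8 (51.1% of all genes). With DESeq2, Krt5, Krt14, Trp63 and Itgb4 also passed as higher (adjusted p = 0.0056 to 0.0415). In edgeR's likelihood-ratio test, 0 of the 9 tested sustentacular cell markers passed (1 at an unadjusted p under 0.05, median 0.26). Their fold change was negative for 2 of 9, and their sums were 7345, 12290, 9693 and 16260 CPM. Other tests did call some of them higher and none lower. Aqp3 and Cbr2 passed the quasi-likelihood test (adjusted p = 0.0347 and 0.0129). With DESeq2, Aqp3, Cbr2 and Cyp2g1 passed (adjusted p = 0.00172, 0.000243 and 0.0355). Of 7 tested neuroendocrine markers, which encode cargo and enzymes of dense-core vesicles, 4 were lower (Chga, Chgb, Scg3 and Scg5, median -0.73). Fabp7 of 8 ensheathing glia markers and Col1a1 and Col1a2 of 8 vascular and fibroblast markers were lower. In edgeR, 0 of 14 tested leukocyte markers passed (0 at an unadjusted p under 0.05). The sums of the leukocyte list were 781, 812, 383 and 864 CPM. Lyz2, at 223.5, 693, 154 and 584 CPM, was its most abundant gene. Every other tested leukocyte marker was highest in control 1, such as C1qa at 68.8, 8.38, 17.3 and 15.9 CPM. The lymphocyte markers Cd3e, Cd79a and Ms4a1 were not tested, and Cd79a was at 0 in all libraries but mutant 1. The part of each of these cell types in the presynaptic values was not tested.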

How the data were processed

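The authors deposited raw counts of reads by gene symbol, 1 file for each of 4 libraries. Per the labels and the study's methods, the authors sorted fluorescent cells of single mice, depleted ribosomal RNA, sequenced single-end reads, removed ribosomal reads with Bowtie2 2.0.6, aligned the others with TopHat2 2.0.7 to mm10 and counted them with HTSeq in its intersection-nonempty mode. HTSeq sets aside reads with several alignments, so counts of genes with close copies are uncertain, and strand handling is not given in the sources used here. The 5 tally lines that name no gene, 43.1 to 77.7% of all counts listed, were left out.

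Genes with CPM above 1 in at least 2 samples were tested in R 4.3.3 with the likelihood-ratio test of edgeR 4.0.16 (TMM factors, Benjamini-Hochberg adjustment over 15438 genes, threshold 0.05). This followed the study's methods apart from the tally lines, which the row total in the study's code includes. Without them 664 of all genes were lower and 197 higher, and with them kept 625 were lower and 185 higher. The model held genotype and experimental group, since control and mutant of a group are littermates handled together, per the labels and methods. Deviations of libraries with the same number were correlated across genes (r = 0.52). Printed CPM are counts relative to the TMM-scaled library total, SE are Wald errors of log2 fold changes, and ratios within an experimental group used a prior count of 2. Exon lengths and coordinates came from GENCODE M21 (GRCm38), which matched 98.05% of symbols, and start sites from RefSeq. With 2 samples per genotype and the pairing ignored, the smallest exact two-sided permutation p is 0.33, so no permutation test was used. Swaps within pairs allow fewer arrangements still.

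The members and all gene lists were chosen with earlier results of these data known. All 40 members were named by rule, with genes past the threshold on the other lists, some of which are not reported here. Some relatives (Dnm2, Snap23 and Syngr2) were picked for description after their values were seen. Alternatives were DESeq2 1.42.0, the quasi-likelihood test of edgeR, a model without the replicate block, no filter, RLE (relative log expression) factors, a CPM above 1 in every sample, thinning to the depth of mutant 2, tally lines kept, a background of 1.79 counts per kb subtracted from mutant 1, length and GC offsets, and leaving out libraries or experimental groups. Precision from depth covers counting error only.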

Additional observations from a re-analysis of the deposited data

Results flagged for a closer look

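In 7 members the mutant to control ratio had opposite signs in the experimental groups, and in none was the difference between groups tested. The log2 ratio in experimental group 2 minus that in experimental group 1 was -4.58 for Syt2, 6.18 for Cplx1, 1.56 for Erc2, -1.23 for Rims1, -0.55 for Rims2, -0.48 for Pclo and 0.18 for Rab3c. Syt2, Cplx1 and Erc2 had the fewest reads among the tested members. Rims1 was above its control in mutant 1 (0.17) and below it in mutant 2 (-1.06), and Rims2 followed at 0.08 and -0.46. Reads that fell outside annotated genes enter no comparison, and mutant 1 had more of them than either control, 39.41% of those aligned uniquely. Subtracting a background estimated from 3751 silent genes left 19 members lower.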

How the results depend on the processing

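Of the 19 members called lower, 17 to 19 were called again under the 9 alternatives that kept the term for experimental group. Unc13a was lost in 4 of them, and Bsn and Syt11 in 1 each. Without the replicate block, 0 members, 0 of all genes, 0 other presynaptic genes and 0 general trafficking genes were lower, 6 of all genes and 0 other presynaptic genes were higher, Cplx1 was at -0.15 and Pclo at -0.036. The quasi-likelihood test left 117 of all genes higher, and length and GC offsets gave 2 other presynaptic genes higher and 1 member (Pclo) higher in experimental group 2. With the background subtracted, Cplx1 was at -0.20 and Rab3c at -0.003.

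Leaving out 1 library, with genotype alone and 1 residual degree of freedom, left 0 members, 0 to 5 of all genes, 0 other presynaptic genes and 0 general trafficking genes lower, and 3 to 33 of all genes and 0 other presynaptic genes higher. The members' median log2 fold change ranged from -1.02 without mutant 1 to -0.35 without control 1 or without mutant 2. Over all choices that left out a library or an experimental group, the log2 fold change ranged from -0.58 to 0.41 for Syn3, -0.19 to 4.39 for Syt2, -0.90 to 0.35 for Syt3, -0.82 to 0.16 for Syt5, -2.67 to 3.51 for Cplx1, -1.43 to 0.005 for Rab3a, -0.15 to 0.30 for Rab3c, -0.83 to 1.19 for Pclo, -1.51 to 0.54 for Rims1, -0.47 to 0.12 for Rims2, -0.44 to 0.78 for Unc13b and -1.28 to 0.92 for Erc2. Of these, Rab3a alone was called in the full model. The cause of these shifts was not tested.

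The calls depend on pairing each mutant with its littermate control, and 2 pairs give no measure of how the pairs themselves vary beyond the model. DESeq2 gave no adjusted p for 9 members of low count. For Syt2, Cplx1 and Erc2, which had few reads, no difference was detectable at this depth, and Slc17a7 was not tested.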
